A study of Homo sapiens with 6 samples.

Results

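The transforming growth factor-beta (TGF-beta) pathway was followed through 10 genes in U118, an established human glioma cell line whose labels give the cell type as astroblastoma. The genes encode ligands (TGFB1, TGFB2), a latent TGF-beta binding protein (LTBP2), the ligand trap vasorin (VASN), receptors (TGFBR2, TGFBR1), signal carriers (SMAD2, SMAD3) and feedback inhibitors (SMAD7, SKIL). They are 10 of the 20263 gene IDs in the count table, all matched by symbol, and all 10 had enough reads to be tested. The cells were collected at day 2 of siRNA transfection. There were 4 libraries with siRNA against RIPK2 (siRIPK2_1 to siRIPK2_4), 1 with the siRNA labelled NC (siNC) and 1 labelled wild type (WT), for which no siRNA is named. All came from U118 cells kept in DMEM with fetal bovine serum, and the labels do not say whether the siRIPK2 libraries are different siRNAs or separate cultures.

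The 10 genes were chosen by pathway role with earlier results from these 6 libraries in view, and VASN was selected on its lower level in the siRIPK2 libraries than in both controls. Their levels and fold changes are therefore given as a description, with errors and without p-values. Levels are in CPM, counts scaled to library size with TMM factors, and a log2 fold change has its standard error (SE) from the edgeR fit of all libraries in 3 groups, or in 2 groups where siRIPK2 is set against both controls together. Each control is a single library, so its values carry no SD.

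TGF-beta ligands are secreted in a latent form that latent binding proteins help to store in the matrix. Released ligand binds the type II receptor, which activates the type I receptor, and this kinase phosphorylates SMAD2 and SMAD3, which enter the nucleus with SMAD4 and switch on target genes. SMAD7 and SKIL are among those targets and damp the signal in turn. In glioblastoma the pathway is known for roles in invasion and in dampening immune responses.

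Total counts were 33540619 to 45309423 per library. RIPK2, the targeted kinase gene on chromosome 8, was at 3.86, 11.9, 6.27 and 4.32 CPM in siRIPK2_1 to siRIPK2_4, against 43.4 CPM in siNC and 56.8 CPM in WT (exact permutation test over 15 splits, 2-sided p = 0.0667, the smallest this design allows). Of 10 astrocyte and glioma markers 6 averaged at least 1 CPM, VIM, CD44, SOX9, NES, SLC1A3 and SOX2. The mature astrocyte markers S100B, ALDH1L1 and AQP4 were at or near 0 counts, and GFAP lay between 0.532 and 0.778 CPM in siRIPK2, with 1.09 CPM in siNC and 0.999 CPM in WT. The summed macrophage and microglia markers were at 108 to 149 CPM in siRIPK2, 95.2 CPM in siNC and 167 CPM in WT, nearly all of it CD68, with AIF1 at 0 and PTPRC at or near 0. Summed markers of endothelium, epithelium and neurons stayed under 8 CPM in every library, and those of oligodendrocytes were at 11.6 to 19.3 CPM in siRIPK2, 22.8 CPM in siNC and 17.3 CPM in WT. In such bulk libraries fewer cells with a transcript and less of it per cell cannot be told apart.

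The siNC library stood apart from WT in several of the 10 genes. It held the highest level of TGFBR2 and SMAD3 among the 6 libraries and the lowest of TGFBR1, SMAD2 and SKIL. Among the siRIPK2 libraries, siRIPK2_1 stood apart most. It held the highest level of TGFB1, TGFB2, LTBP2, TGFBR1 and SKIL among the 6 libraries and the lowest of VASN. It also had the highest SOX9, at 122 CPM against 48.2 to 68.5 CPM in siRIPK2_2 to siRIPK2_4. SOX2 was highest there too, at 14.0 CPM against 0.748 to 4.76 CPM in the other libraries. NES and SLC1A3 were also highest in siRIPK2_1, while VIM, CD44 and GFAP were highest in siNC. The part of either library's other differences in the results was not tested. Comparisons with siNC and with WT share the siRIPK2 libraries, and both are given side by side.

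VASN was the 1 gene of the 10 whose siRIPK2 libraries all lay on the same side of both controls, below them. Vasorin is a single-pass membrane protein with leucine-rich repeats whose shed extracellular part binds TGF-beta and blocks its signal. The level was 84.9, 127, 109 and 127 CPM in siRIPK2_1 to siRIPK2_4, against 214 CPM in siNC and 219 CPM in WT. The siRIPK2 libraries averaged 112 ± 19.97 CPM (SD, n = 4), which is 52.3% of siNC and 51.2% of WT. Each of them lay below both controls, and the controls differed little from each other. The log2 fold change was -0.94 against siNC (SE 0.30), -0.97 against WT (SE 0.30) and -0.95 against both controls together (SE 0.22), with -0.03 for siNC against WT (SE 0.41). Of all 14306 genes tested, 5.5% had all 4 siRIPK2 libraries below both controls and 4.96% had all 4 above them. Among the 10 genes these counts were 1 (VASN) and 0, and since VASN was picked for this pattern nothing is read from them. The 4 siRIPK2 libraries of VASN had a coefficient of variation of 17.8%, against a median of 25.2% over all genes tested.

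**Figure D1:**
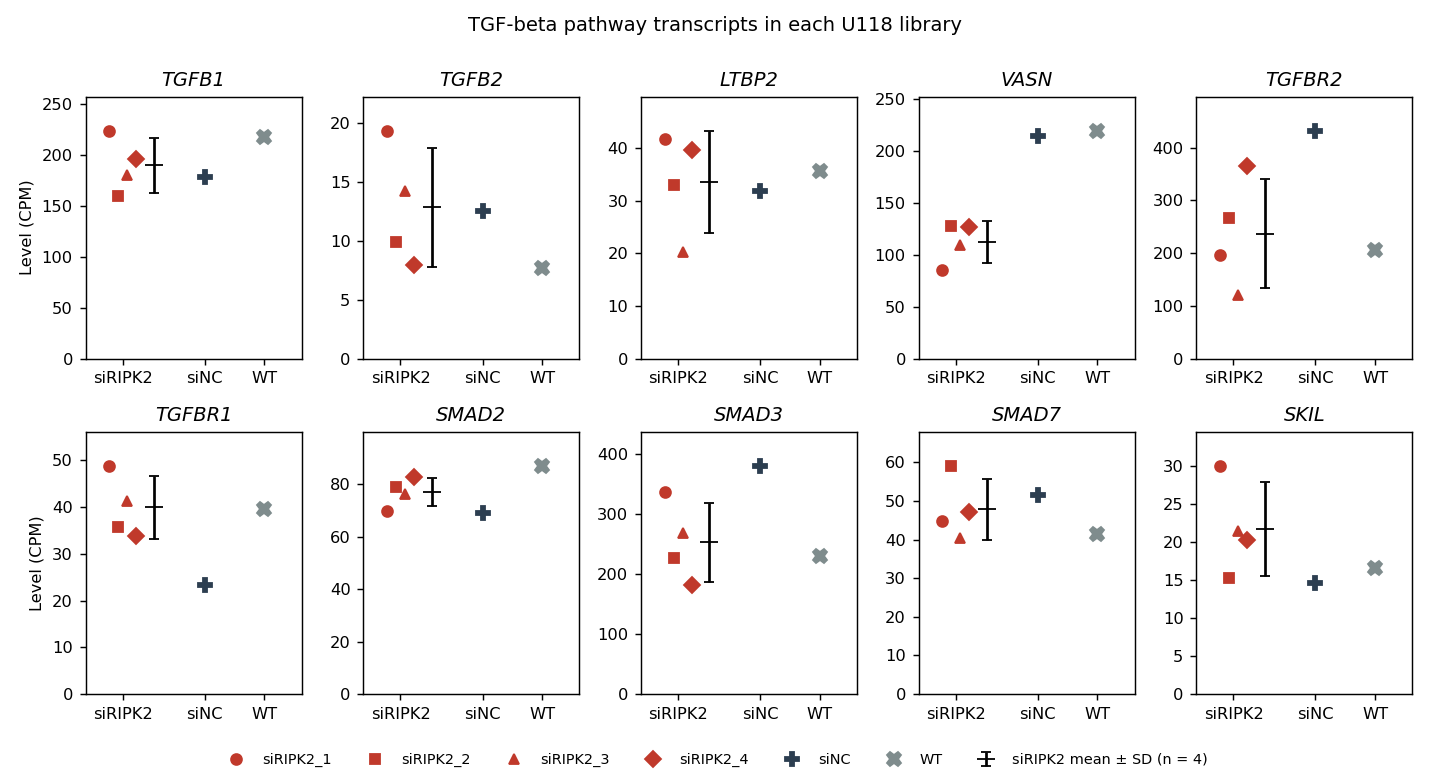
Level of each of the 10 genes in CPM (vertical axes, each from 0) in the 4 siRIPK2 libraries (symbols, with their mean and SD), in siNC and in WT. VASN is at 84.9 to 127 CPM in siRIPK2, below 214 CPM in siNC and 219 CPM in WT, while in each of the other 9 panels the siRIPK2 libraries do not all lie on the same side of both controls.

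VASN (ENSG00000168140) lies at chr16:4371848-4383528 on the plus strand (GRCh38), inside the span of CORO7 and of the CORO7-PAM16 readthrough gene, which run on the minus strand. No annotated exon of these genes overlaps a VASN exon. The strand setting of the counting is not given, so intronic reads from CORO7 transcripts cannot be told apart from VASN reads. CORO7, which encodes a coronin of the Golgi, was at 34.7, 25.0, 13.2 and 30.1 CPM in siRIPK2_1 to siRIPK2_4, against 19.0 CPM in siNC and 28.9 CPM in WT. Its siRIPK2 libraries thus lay on both sides of the controls. The promoter of VASN is shown because VASN is the gene of the 10 whose libraries separate. It is the RefSeq window from 250 bases before to 50 bases after the transcript start (GRCh38.p14, chr16:4371598-4371897, plus strand, G+C 72%), printed 5′ to 3′, in which capitals would mark a match to any of the 4 motifs searched.
VASN promoter: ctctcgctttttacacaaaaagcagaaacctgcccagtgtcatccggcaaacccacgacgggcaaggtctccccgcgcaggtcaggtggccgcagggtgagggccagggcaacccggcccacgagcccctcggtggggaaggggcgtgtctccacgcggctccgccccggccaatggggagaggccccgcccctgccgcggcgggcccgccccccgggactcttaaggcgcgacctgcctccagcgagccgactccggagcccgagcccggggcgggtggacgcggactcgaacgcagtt

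The motifs, searched on both strands in the same window of every gene, were GTCTAGAC (the palindromic SMAD-binding element), CAGAC (the core of CAGA boxes bound by SMAD3), GGCGCC (a GC-rich SMAD element) and TGANTCA (AP-1). They do not contain one another. Of 35116 windows, 0.202% held GTCTAGAC, 45.3% CAGAC, 19.2% GGCGCC and 7.71% TGANTCA. The 10 genes have 25 windows, since RefSeq gives several starts for some, and 0, 12, 6 and 2 of the 25 held these motifs in that order. TGFBR1 has 8 of the windows and SMAD3 has 5. Some windows overlap, and TGFBR1 windows 1 and 6 hold the same CAGAC match, so these counts are not of separate sites. None of the 4 motifs was found in the VASN window or in the single TGFB1 window.

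Genes with a pattern much like that of VASN over the 6 libraries included ACOT2, FAM136A and KDELR3. Likeness was the root mean square difference of log2(CPM + 1) values, each gene centred on its own mean, among 7754 other genes with a mean of at least 20 CPM. It was 0.214 for ACOT2, 0.216 for FAM136A and 0.219 for KDELR3, which overlaps an exon of DDX17, against a median of 0.561. ACOT2, which encodes a mitochondrial acyl-CoA thioesterase, was at 35.4, 46.7, 42.8 and 48.0 CPM in siRIPK2_1 to siRIPK2_4, against 65.1 CPM in siNC and 60.3 CPM in WT. It was picked for likeness to VASN, so the shared lowest level in siRIPK2_1 and higher level in both controls are no separate finding. Its log2 fold changes were smaller than those of VASN, at -0.59 against siNC and -0.48 against WT. Of the 10 genes, TGFB2 and SKIL averaged under 20 CPM and were not compared. Among the 7 that were, the nearest to VASN was SMAD2, at 0.472, which ranked 1759 in likeness. The measure takes in the size of changes, and SMAD2 was the steadiest of the 10 genes. Its siRIPK2 libraries all lay between the controls, unlike those of VASN. All these genes were compared over the same libraries, and the likeness has no test.

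The ligand genes lay among the controls in part of the siRIPK2 libraries, and TGFB1 far outweighed TGFB2. TGFB1 (ENSG00000105329, chromosome 19, 41301587 to 41353911, minus strand) was at 223, 159, 180.1 and 196 CPM in siRIPK2_1 to siRIPK2_4, against 178 CPM in siNC and 218 CPM in WT. The siRIPK2 libraries span both controls, with a log2 fold change of 0.09 against siNC (SE 0.30) and -0.20 against WT (SE 0.29). An exon of TGFB1 overlaps HNRNPUL1 on the other strand, which was at 475, 301, 362 and 427 CPM in siRIPK2_1 to siRIPK2_4, 404 CPM in siNC and 385 CPM in WT, so TGFB1 counts are uncertain to that extent. In both genes siRIPK2_1 was the highest library and siRIPK2_2 the lowest.

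TGFB2 (ENSG00000092969, chromosome 1, 218346235 to 218444619, plus strand) was at 19.3, 9.87, 14.2 and 7.98 CPM in siRIPK2_1 to siRIPK2_4, against 12.5 CPM in siNC and 7.66 CPM in WT. All 4 siRIPK2 libraries were above WT, siRIPK2_4 only slightly, and 2 of 4 were above siNC. Its log2 fold change was 0.75 against WT (SE 0.54) and 0.04 against siNC (SE 0.52), with 0.71 for siNC against WT (SE 0.66). The highest siRIPK2 library, siRIPK2_1, held 2.43 times the level of the lowest, and without it the log2 fold change against WT was 0.48. Per transcript length, TGFB1 exceeded TGFB2 by 21.1, 29.5, 23.1 and 44.8 times in siRIPK2_1 to siRIPK2_4, by 25.9 times in siNC and by 51.8 times in WT. This ratio was below the WT value in all 4 siRIPK2 libraries and in siNC.

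VASN reads per length set against those of TGFB1, the main ligand here, gave ratios of 0.375, 0.790, 0.599 and 0.639 in siRIPK2_1 to siRIPK2_4, against 1.19 in siNC and 0.994 in WT. All siRIPK2 values were below both controls, with the lowest in siRIPK2_1, the library with the least VASN and the most TGFB1. Against TGFB2 the ratio was 7.90, 23.3, 13.8 and 28.6 in siRIPK2_1 to siRIPK2_4, against 30.8 in siNC and 51.5 in WT. These are ratios of transcript levels, on the TPM scale, and hold the pattern that VASN was selected on.

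LTBP2, a large matrix protein of the latent TGF-beta binding family that, unlike its relatives, does not bind latent TGF-beta itself, varied among the siRIPK2 libraries without separating from the controls. LTBP2 (ENSG00000119681, chromosome 14, 74498170 to 74612378, minus strand) was at 41.6, 32.97, 20.2 and 39.6 CPM in siRIPK2_1 to siRIPK2_4, against 31.9 CPM in siNC and 35.7 CPM in WT. Of the siRIPK2 libraries, siRIPK2_3 was below both controls and 2 were above both, which gave a log2 fold change of 0.07 against siNC (SE 0.43) and -0.09 against WT (SE 0.42).

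The receptor genes differed between siRIPK2 and siNC in opposite directions, and hardly on average between siRIPK2 and WT. TGFBR2, the type II receptor (ENSG00000163513, chromosome 3, 30606502 to 30694142, plus strand), was at 196, 266, 121 and 364 CPM in siRIPK2_1 to siRIPK2_4, against 432 CPM in siNC and 206 CPM in WT. All 4 were below siNC, 2 were above WT and 2 below it. Its spread, with a coefficient of variation of 43.8% and a 3.02-fold gap between siRIPK2_4 and siRIPK2_3, was the widest of the 10 genes. The log2 fold change was -0.87 against siNC (SE 0.50) and 0.20 against WT (SE 0.54), with 1.07 for siNC against WT (SE 0.68).

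TGFBR1, the type I receptor kinase (ENSG00000106799, chromosome 9, 99104038 to 99154192, plus strand), was at 48.8, 35.7, 41.3 and 33.9 CPM in siRIPK2_1 to siRIPK2_4, against 23.3 CPM in siNC and 39.6 CPM in WT. Here all 4 were above siNC, and WT lay inside their range. The log2 fold change was 0.78 against siNC (SE 0.35), 0.01 against WT (SE 0.33) and -0.77 for siNC against WT (SE 0.42). Per length, TGFBR2 exceeded TGFBR1 by 5.66, 10.5, 4.12 and 15.1 times in siRIPK2_1 to siRIPK2_4, by 26.1 times in siNC and by 7.32 times in WT. The siNC ratio was above those of the other 5 libraries, and WT lay within the siRIPK2 range.

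**Figure D2:**
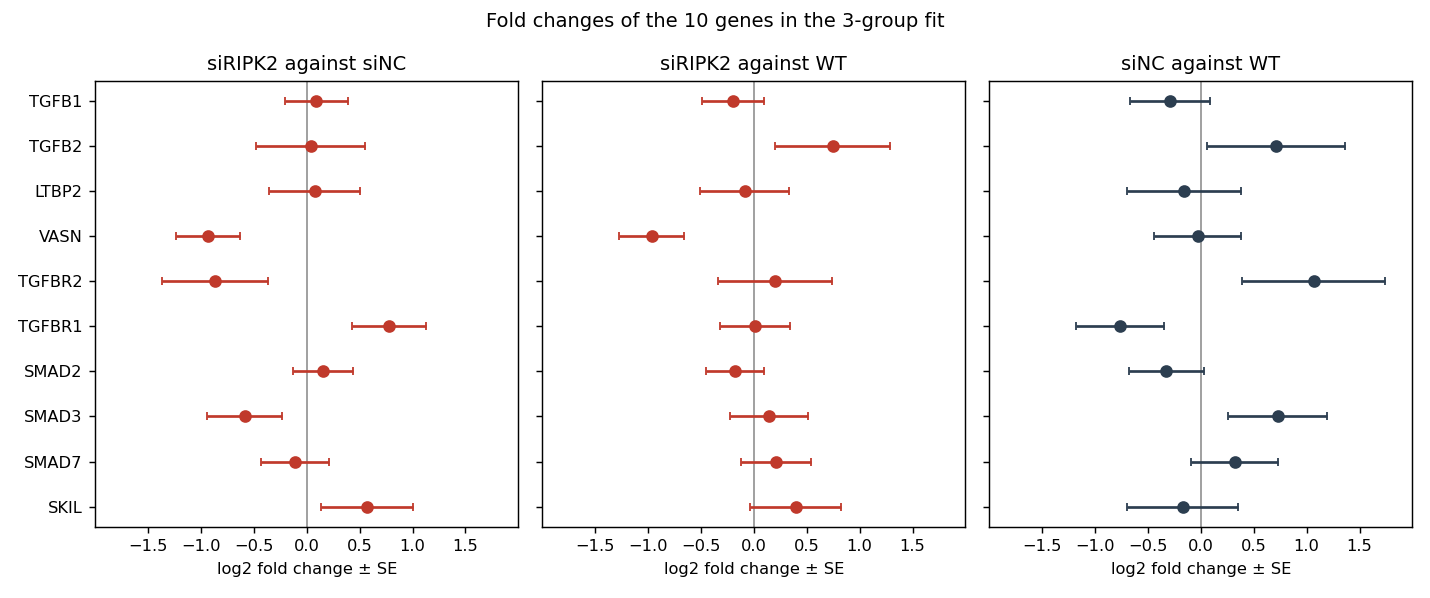
Log2 fold change (horizontal axes, points) with its SE (bars) of the 10 genes, from left to right for siRIPK2 over siNC, siRIPK2 over WT and siNC over WT. VASN is at -0.94 and -0.97 in the first 2 panels and at -0.03 in the third. TGFBR2, TGFBR1, SMAD3 and SKIL are at -0.87, 0.78, -0.58 and 0.57 against siNC. Against WT they are at 0.20, 0.01, 0.14 and 0.39.

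SMAD2 was the steadiest of the 10 genes and SMAD3, like TGFBR2, was below siNC in every siRIPK2 library and on both sides of WT. SMAD2 (ENSG00000175387, chromosome 18, 47808957 to 47931146, minus strand) was at 69.9, 79.0, 76.2 and 82.8 CPM in siRIPK2_1 to siRIPK2_4, against 69.2 CPM in siNC and 86.9 CPM in WT. All 4 libraries lay between the controls, with a coefficient of variation of 7.07%. Its log2 fold change was 0.15 against siNC (SE 0.28) and -0.18 against WT (SE 0.28).

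SMAD3 (ENSG00000166949, chromosome 15, 67063763 to 67195195, plus strand), the receptor-activated SMAD that binds DNA directly, was at 336, 226, 268 and 181 CPM in siRIPK2_1 to siRIPK2_4, against 379 CPM in siNC and 229 CPM in WT. All 4 were below siNC, and WT lay inside their range. Its log2 fold change was -0.58 against siNC (SE 0.35) and 0.14 against WT (SE 0.37), with 0.73 for siNC against WT (SE 0.47). The order of the siRIPK2 libraries in SMAD3, with siRIPK2_1 highest and siRIPK2_4 lowest, was the reverse of that in SMAD2.

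The feedback genes SMAD7 and SKIL, whose transcripts TGF-beta signalling is known to induce, showed no shared separation from the controls. SMAD7 (ENSG00000101665, chromosome 18, 48919853 to 48952052, minus strand), which blocks the type I receptor, was at 44.7, 59.0, 40.3 and 47.1 CPM in siRIPK2_1 to siRIPK2_4, against 51.5 CPM in siNC and 41.3 CPM in WT. Of the siRIPK2 libraries 1 was above both controls, 1 was below both and 2 lay between them. The log2 fold change was -0.11 against siNC (SE 0.32) and 0.21 against WT (SE 0.33).

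SKIL (ENSG00000136603, chromosome 3, 170357678 to 170396835, plus strand), which encodes the SMAD co-repressor SnoN, was at 29.9, 15.2, 21.4 and 20.2 CPM in siRIPK2_1 to siRIPK2_4, against 14.6 CPM in siNC and 16.5 CPM in WT. All 4 siRIPK2 libraries were above siNC and 3 above WT, with siRIPK2_2 between the controls. Its log2 fold change was 0.57 against siNC (SE 0.43) and 0.39 against WT (SE 0.43). Without siRIPK2_1, the highest library, these fold changes were 0.36 against siNC and 0.19 against WT. Without siRIPK2_2, the library between the controls, the remaining 3 libraries were all above both controls, as they were for 1455 of 14306 genes. The promoters of SMAD7 and SKIL are shown because these are the known SMAD targets among the 10 genes. Both are RefSeq windows of the same extent, printed 5′ to 3′ on the gene's strand, with matches to the searched motifs in capitals. The SMAD7 window, the first of 3 listed, is GRCh38.p14 chr18:48950916-48951215 on the minus strand and holds CAGAC at positions -217 and -128, counted to the motif's first base from the transcript start. The SKIL window is chr3:170357465-170357764 on the plus strand and holds GGCGCC at -190 and, on the other strand, CAGAC at -107.
SMAD7 promoter: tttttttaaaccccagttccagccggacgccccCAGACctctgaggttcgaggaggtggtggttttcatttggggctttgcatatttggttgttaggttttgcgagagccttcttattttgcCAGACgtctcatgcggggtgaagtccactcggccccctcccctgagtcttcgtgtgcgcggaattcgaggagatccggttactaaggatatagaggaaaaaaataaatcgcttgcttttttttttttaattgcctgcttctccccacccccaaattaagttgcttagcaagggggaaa
SKIL promoter: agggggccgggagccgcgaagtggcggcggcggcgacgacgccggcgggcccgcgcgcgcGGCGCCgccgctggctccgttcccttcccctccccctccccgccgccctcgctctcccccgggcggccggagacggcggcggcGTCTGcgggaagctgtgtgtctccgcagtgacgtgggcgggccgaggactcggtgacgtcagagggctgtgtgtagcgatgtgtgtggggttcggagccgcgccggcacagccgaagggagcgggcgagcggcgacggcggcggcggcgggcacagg

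These matches are descriptions of the letters and no measure of binding, and CAGAC occurs in 45.3% of all windows. Among the siRIPK2 libraries, siRIPK2_2 was the highest in SMAD7 and the lowest in SKIL, so the order of the libraries differed between these genes. Per length, SKIL relative to SMAD7 was 0.412, 0.158, 0.327 and 0.265 in siRIPK2_1 to siRIPK2_4, against 0.175 in siNC and 0.246 in WT, and the siRIPK2 values lay on both sides of the controls.

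Ordered by length-scaled level, the 10 genes formed a high and a low set. Levels were computed as TPM (counts per transcript length, scaled to the same sum in each library) from the longest protein-coding transcript of each gene in GENCODE. TGFB1 averaged 176 ± 27.1 TPM in siRIPK2 (SD, n = 4), with 151 TPM in siNC and 201 TPM in WT. TGFBR2 followed at 132 ± 55.5 TPM, with 219.9 TPM in siNC and 114 TPM in WT. SMAD3 was at 105 ± 29.9 TPM in siRIPK2, 143 TPM in siNC and 93.9 TPM in WT, and VASN at 103 ± 18.0 TPM in siRIPK2, 179.9 TPM in siNC and 200.1 TPM in WT. In siRIPK2 the values of TGFBR2, SMAD3 and VASN overlap within their spread. VASN was second to TGFBR2 in siNC and close behind TGFB1 in WT, and had the lowest siRIPK2 mean of the 4 genes.

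SMAD7 followed at 27.9 ± 5.63 TPM in siRIPK2, 27.4 TPM in siNC and 23.9 TPM in WT, clear of the genes above and below it. TGFBR1 averaged 15.8 ± 3.03 TPM in siRIPK2, 8.41 TPM in siNC and 15.6 TPM in WT. LTBP2, SKIL, TGFB2 and SMAD2 averaged 10.1, 7.78, 6.59 and 5.74 TPM in siRIPK2 and neighbours in this order overlapped in their siRIPK2 values. LTBP2 was above SMAD2 in all 6 libraries. The SMAD2 value rests on an unusually long annotated transcript of 34526 bases, and the union of its exons, at 36366 bases, is no shorter. In CPM, SMAD2 averaged 77.0 in siRIPK2 and LTBP2 33.6, so the place of SMAD2 below LTBP2 depends on the length used. With the union of all exons as length, the means in siRIPK2 were 223 TPM for TGFB1, 191 for TGFBR2, 152 for VASN, 106 for SMAD3 and 36.3 for SMAD7, and VASN then stood above SMAD3.

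**Figure D3:**
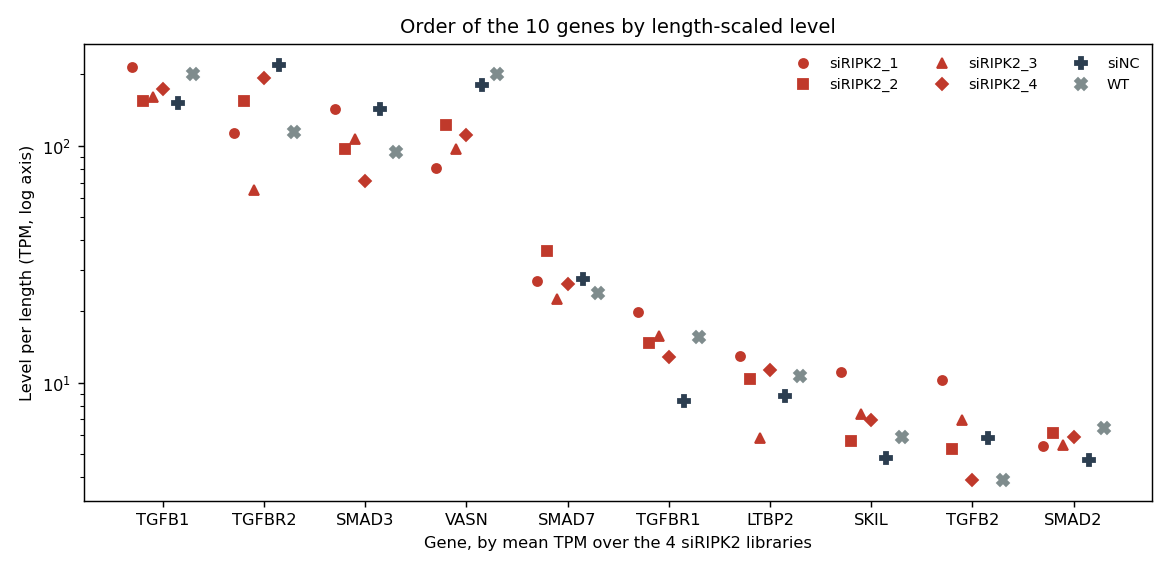
Length-scaled level in TPM (vertical log axis) of the 10 genes in each library, ordered by the mean of the 4 siRIPK2 libraries (red symbols), with siNC and WT beside them. TGFB1, TGFBR2, SMAD3 and VASN lie at 64.8 TPM or more in every library, SMAD7 between 22.6 and 35.8 TPM, and the rest lower.

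No gene in the table passed edgeR's quasi-likelihood test at an adjusted p under 0.05 (Benjamini-Hochberg) when siRIPK2 was set against siNC, against WT or against both controls, or siNC against WT, so the share called was 0% in each and 0 of the 10 genes were called. At an unadjusted p under 0.05, 3.56% of 14306 genes were higher and 1.21% lower in siRIPK2 than in siNC. The shares were 0.664% higher and 0.419% lower against WT, 1.32% and 1.23% against both controls (13901 genes), and 0.643% higher and 2.09% lower in siNC than in WT. DESeq2 called 74, 9, 11 and 11 genes in the comparisons in the order above, and limma-voom 0, 1, 0 and 0, none of them among the 10 genes or the wider lists below. Over the 10 genes the median log2 fold change was 0.06 against siNC and 0.08 against WT, beside medians of 0.02 and 0.01 over all genes. RIPK2, with log2 fold changes of -2.72 against siNC, -3.11 against WT and -2.93 against both controls, was not called either (adjusted p of 0.972, 1 and 0.739 in edgeR). When genes were changed in simulated counts, edgeR's recovery against siNC was 4% at 2-fold, 60% at 4-fold and 96% at 8-fold, and against both controls 8%, 90% and 98%. Unchanged genes called in the simulation were 10 against siNC and 9 against both controls. The simulation thus called changes of a size that the fit of the real counts did not call for RIPK2. It gave siNC and WT the same mean for each gene and drew genes independently. Recovery in the real counts may therefore be lower.

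A wider set of 76 genes of the TGF-beta, activin and BMP pathways, in 6 lists by role, was set beside the 10 genes, and 70 of them could be tested. None was called in any comparison. At an unadjusted p under 0.05, 3 of the 70 were higher in siRIPK2 than in siNC (4.29%, against 3.56% of all genes) and 6 were lower (8.57%, against 1.21%). Against WT the count was 0 in both directions, beside 0.664% of all genes higher and 0.419% lower, so little can be read from it. The lists' median log2 fold change over the 70 genes was 0.01 against siNC and 0.14 against WT. Like the 10 genes, the lists were chosen with earlier results of these data known. Shares and unadjusted p-values, here and in the lists below, are therefore descriptions and no test of the lists.

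Of 10 further ligand genes 7 were tested, and their median log2 fold change was 0.65 against siNC and 0.64 against WT, beside medians near 0 over all genes. All 7 had positive values in both comparisons, which share the siRIPK2 libraries. TGFB3, the third TGF-beta isoform, was at 7.97, 6.54, 3.28 and 3.16 CPM in siRIPK2_1 to siRIPK2_4, against 2.81 CPM in siNC and 3.05 CPM in WT (unadjusted p of 0.209 against siNC and 0.266 against WT in edgeR, the order kept for the pairs of p-values that follow). INHBA, the activin A subunit, was at 4.84, 3.96, 6.51 and 3.55 CPM in siRIPK2_1 to siRIPK2_4, against 2.43 CPM in siNC and 2.94 CPM in WT. In both genes, and in BMP4 (0.948 to 1.99 CPM in siRIPK2, 0.904 CPM in siNC and 0.833 CPM in WT), all siRIPK2 libraries were above both controls. That is 3 of 7, or 42.9%, beside 4.96% of all genes. BMP4 was picked out after its values were seen. Some of these gaps were narrow and within counting error. TGFB3 was at 3.16 CPM in siRIPK2_4 (115 counts) and 3.05 CPM in WT (110 counts). BMP4 was at 0.948 CPM in siRIPK2_2 (39 counts) and 0.904 CPM in siNC (29 counts). BMP2 was at 2.62 to 6.43 CPM in siRIPK2, 2.74 CPM in siNC and 3.16 CPM in WT, and BMP6 at 3.99 to 12.5 CPM, 5.33 CPM and 5.38 CPM in the same order.

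Among genes of latency and activation, 12 of 13 were tested, with a median of -0.11 against siNC and -0.04 against WT. LTBP4, a latent binding protein of elastic fibres, was at 49.0, 41.8, 51.8 and 45.3 CPM in siRIPK2_1 to siRIPK2_4, against 75.0 CPM in siNC and 60.5 CPM in WT (unadjusted p of 0.0425 and 0.236). It was below both controls in every siRIPK2 library, the 1 gene of the 12 (8.33%) to be so, beside 5.5% of all genes. LTBP3 was at 117 to 161 CPM in siRIPK2, 170.4 CPM in siNC and 141 CPM in WT. ITGB8, an integrin subunit that activates latent TGF-beta, was at 51.9, 20.02, 7.84 and 8.97 CPM in siRIPK2_1 to siRIPK2_4, against 6.48 CPM in siNC and 11.7 CPM in WT. Its mean rests mainly on siRIPK2_1. NRROS, which tethers latent ligand in myeloid cells and here overlaps an exon of PIGX, was at 11.2 to 15.1 CPM in siRIPK2, 17.4 CPM in siNC and 9.63 CPM in WT.

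All 9 further receptor genes were tested, and their median was 0.15 against siNC and 0.29 against WT. BMPR2, the BMP type II receptor, was at 96.9, 73.8, 78.4 and 80.5 CPM in siRIPK2_1 to siRIPK2_4, against 47.7 CPM in siNC and 65.2 CPM in WT (unadjusted p of 0.0367 and 0.299). BMPR1A was at 33.1 to 39.0 CPM in siRIPK2, 25.7 CPM in siNC and 32.4 CPM in WT, and ACVR2A, which overlaps an exon of ORC4, at 11.9 to 17.1, 10.3 and 10.2 CPM in the same order. In these 3 genes, 33.3% of the list, every siRIPK2 library was above both controls, beside 4.96% of all genes. For BMPR1A the gap was narrow, between 33.1 CPM in the lowest siRIPK2 library and 32.4 CPM in WT. ACVR1B, an activin type I receptor, was at 11.8 to 28.6 CPM in siRIPK2, 14.5 CPM in siNC and 18.3 CPM in WT, and did not separate.

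For SMADs and nuclear partners 11 of 12 were tested, with medians of 0.13 against siNC and 0.00 against WT, and none separated from both controls. ZFYVE9, which presents SMAD2 and SMAD3 to the receptor and overlaps an exon of CC2D1B, was at 22.9 to 35.6 CPM in siRIPK2, 48.2 CPM in siNC and 34.0 CPM in WT (unadjusted p of 0.0609 and 0.514). SMAD6, TGIF1 and CREBBP were at 13.0 to 35.3, 40.7 to 52.4 and 85.2 to 130.2 CPM in siRIPK2. In siNC they were at 32.3, 58.9 and 90.9 CPM, and in WT at 25.1, 39.2 and 142 CPM.

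In the list of inhibitors and turnover all 12 were tested, with medians of 0.25 against siNC and 0.18 against WT. FKBP1A, which keeps the type I receptor inactive, was at 391, 439, 486 and 491 CPM in siRIPK2_1 to siRIPK2_4, against 886 CPM in siNC and 486 CPM in WT (unadjusted p of 0.00554 and 0.705). USP15, a deubiquitinase that stabilises the receptor, was at 65.5 to 89.2 CPM in siRIPK2, 43.9 CPM in siNC and 71.3 CPM in WT (unadjusted p of 0.0279 and 0.602). PPM1A, a SMAD phosphatase, was at 22.9 to 63.2 CPM in siRIPK2, 28.0 CPM in siNC and 64.0 CPM in WT, and FSTL3, an activin-binding protein, at 12.5 to 20.3, 21.7 and 15.3 CPM in that order.

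The target list had 19 of 20 genes tested and a median of -0.24 against siNC and -0.07 against WT. For siNC against WT the median was 0.11, with 13 of the 19 genes higher and 6 lower. The part of the siNC library's own differences in the siNC comparison was not tested. At an unadjusted p under 0.05 against siNC, 4 of the 19 were lower (21.1%, beside 1.21% of all genes) and 1 higher (5.26%, beside 3.56%). Against WT the count was 0 in both directions, beside 0.419% of all genes lower and 0.664% higher, so little can be read from it. ID2, a helix-loop-helix inhibitor, was at 23.8, 34.5, 17.0 and 10.3 CPM in siRIPK2_1 to siRIPK2_4, against 64.3 CPM in siNC and 14.6 CPM in WT (unadjusted p of 0.0176 and 0.390). The cell cycle inhibitor CDKN1A was at 59.3 to 79.7 CPM in siRIPK2, 114 CPM in siNC and 58.4 CPM in WT. COL1A1, the type I collagen chain, was at 1224 to 2297 CPM in siRIPK2, 3436 CPM in siNC and 1799.9 CPM in WT (unadjusted p of 0.0189 and 0.935). TGFBI, a secreted matrix protein and the remaining lower gene, named after its values were seen, was at 29.6 to 109 CPM in siRIPK2, 187 CPM in siNC and 78.3 CPM in WT. These 4 lower genes, ID2, CDKN1A, COL1A1 and TGFBI, were each higher in siNC than in WT. The part of this in their lower level against siNC was not tested. TSC22D1 was at 149 to 183 CPM in siRIPK2, 89.0 CPM in siNC and 150.0 CPM in WT (unadjusted p of 0.0142 and 0.524).

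TPM1, a tropomyosin, was at 115, 125, 143 and 137 CPM in siRIPK2_1 to siRIPK2_4, against 149 CPM in siNC and 150.1 CPM in WT, and lay below both in each. It was picked out after its values were seen. In the target list 1 gene was below both controls in every siRIPK2 library and 1 above both, 5.26% each, beside 5.5% and 4.96% of all genes. Over all 70 genes the counts were 2 below (2.86%) and 7 above (10%). SMAD7 and SKIL, the feedback targets described above, had log2 fold changes of -0.11 and 0.57 against siNC and 0.21 and 0.39 against WT.

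**Figure D4:**
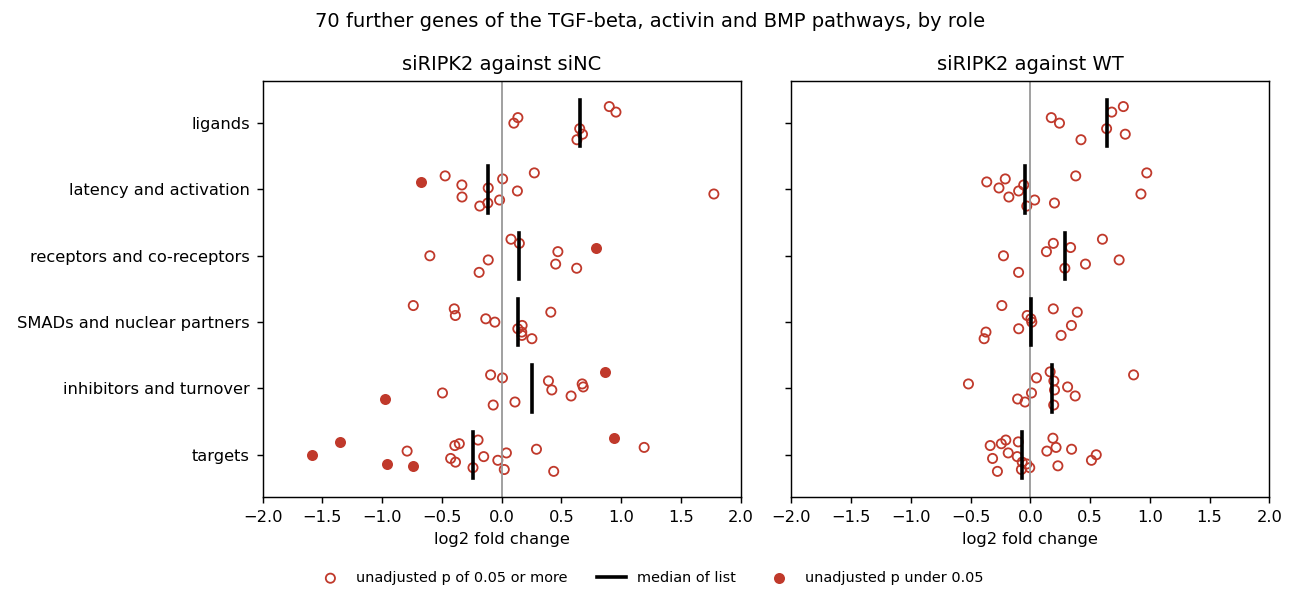
Log2 fold change (horizontal axes) of the 70 further pathway genes tested, by role (rows), in siRIPK2 against siNC and siRIPK2 against WT. Filled points have an unadjusted p under 0.05, open points do not, and black bars are list medians. There are 9 filled points against siNC and 0 against WT, and the ligand median is 0.65 and 0.64.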

How the data were processed

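RNA sequencing of poly(A)-enriched RNA was analysed in 6 libraries of U118 cells. The table the authors deposited gives unnormalised read counts for each Ensembl gene. GRCh38 is the build in the submitters' processing notes, which also list bedtools, HISAT2, Trimmomatic and FastQC. Tool versions, the annotation and the strand setting are not given in these sources. Symbols matched 20148 of 20263 IDs, and coordinates, exon overlaps and lengths came from GENCODE release 29 (GRCh38).

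The main test was the quasi-likelihood F test of edgeR 4.0.16 (R 4.3.3) after TMM scaling, on genes kept by filterByExpr (min.count 10), with Benjamini-Hochberg adjustment over all genes tested and a threshold of 0.05. One fit had 3 groups over all libraries (3 residual degrees of freedom, all from siRIPK2, so each lone control is assumed to vary as they do), and another set siRIPK2 against both controls (4 residual degrees of freedom). Since nothing says that the siRIPK2 libraries are independent cultures, p-values cover just the differences among them, possibly technical. An SE is the absolute log2 fold change over the root of F. A level of 3 counts corresponds to 0.0664 to 0.0935 CPM, counting error only, and the 10 genes had at least 276 counts in each library. Chi-square per degree of freedom between libraries was at least 77.1, so none were duplicates. The fits were tested on simulated counts for 14306 genes, 50 changed at each of 2, 4, 8 and 16-fold. Alternatives were DESeq2 1.42.0, limma-voom (limma 3.58.1), other scalings, no filter and leaving out each library. From each role list up to 4 genes averaging at least 1 CPM were named, those of smallest unadjusted p in the siNC comparison, and the 5 genes most like VASN were to be named. Some genes are not reported here. The 10 genes and all lists were chosen with earlier results of these data known. Promoter sequences came from RefSeq (GRCh38.p14), where all 10 genes matched.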

Additional observations from a re-analysis of the deposited data

How the results depend on the processing

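The count of genes called moved with the test. For siRIPK2, DESeq2 called 74 genes against siNC, 9 against WT and 11 against both controls, and it called 11 in siNC against WT, where edgeR called 0 in each. Against WT, 1 gene was called by limma-voom and 1 by edgeR without the filter on low counts. Leaving out 1 library at a time gave 0 to 2 calls against both controls, the 2 calls coming without siRIPK2_1 and without siRIPK2_2. The causes of these moves were not tested. None of the 10 genes and no gene of the role lists was called under any of these settings.

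The number of genes with all siRIPK2 libraries below both controls was 787, and 1241 to 2481 with 1 library left out, since fewer libraries have to separate. The number above both was 710, and 1156 to 2760. Among the 10 genes it was 1 to 3 below and 0 to 3 above. VASN was below under every such setting, an outcome fixed beforehand, since leaving out a library cannot undo a full separation. VASN was also picked for this pattern. Without WT, TGFBR2 and SMAD3 were below too and TGFBR1, SMAD2 and SKIL above, beside 2481 of 14306 genes below and 2760 above. Without siNC, SMAD2 was below and TGFB2 above, beside 1826 genes below and 1644 above. Without siRIPK2_2 SKIL was above, as were 1455 genes.

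Of 380 alternative log2 fold changes of the 10 genes, 375 moved by less than 1 SD of the siRIPK2 libraries and 23 changed sign, none of them for VASN or SKIL. VASN stayed between -1.004 and -0.839 against siNC and between -1.03 and -0.86 against WT. No paired analysis was possible because each control group has 1 library.

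With at least 276 counts per gene and library, counting error is small for the 10 genes, and 1 library per control leaves the spread of the controls unmeasured.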
